A study of Mus musculus with 4 samples.

Results

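Smad1 occupied 10466 genomic intervals that both peak callers found in vehicle-treated embryoid bodies, and 924 of them (8.83%) lay close to a transcript start and held an uninterrupted run of adenines. These promoter run sites were chosen by 3 features. The interval overlapped no nuclear tRNA gene, it held at least 7 identical A bases on either strand (a run of T on the strand read is a run of A on the other), and its centre lay within 1 kb of any transcript start in the GENCODE M21 annotation. Of the 1197 intervals that met the conditions on tRNA genes and distance, 924 (77.2%) held a run and 273 (22.8%) did not. Among all 10466 common intervals the share was higher, since 9338 (89.2%) held a run and overlapped no tRNA gene.

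Smad1 is the transcription factor that bone morphogenetic protein (BMP) receptors phosphorylate, after which it enters the nucleus with Smad4 and binds GC-rich elements and CAGA-type Smad-binding elements. IWR-1 stabilises Axin, the scaffold of the complex that destroys β-catenin, and so blocks canonical Wnt signalling. Long adenine runs in mammalian genomes are for the most part the tails of retrotransposed sequences. In rodents the commonest short retrotransposons are the B1 repeat, which derives from the 7SL RNA of the signal recognition particle, and the B2 repeat, which derives from a tRNA. Both are transcribed by RNA polymerase III and carry their adenine tail at the 3′ end.

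The cells were GFP-Bry mouse embryonic stem cells, a single reporter line with GFP at the Brachyury locus and the strain label C57BL/6. They were differentiated as embryoid bodies, dissociated at day 3 and reaggregated in the presence of 10 µM IWR-1 or its vehicle DMSO, then collected 24 h later, at day 4. Smad1 chromatin immunoprecipitation (ChIP) and input DNA were sequenced in 1 library per treatment, 4 libraries in all, so that no difference between treatments has a replicate check and no test was made. The deposited data are 5 lists of intervals that hold no read counts, and the depth behind each interval is therefore unknown. Cell identity could not be checked against marker genes in such lists.

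Of the lists, 3 describe the DMSO sample, namely the 15927 peaks of the caller MACS, the 26070 peaks of the caller QESEQ and the 10466 intervals common to both, whose boundaries are those of QESEQ. The MACS and common lists carry the sample label of the DMSO input, and this QESEQ list that of the IWR-1 input. It is taken as that of DMSO because all 10466 common DMSO intervals are among its peaks. An IWR-1 list from QESEQ held 16261 peaks. A second MACS list held 7815 peaks. Its sample label names the DMSO ChIP, yet its file is named for IWR-1 and the other MACS list is the parent of the common DMSO sites, and the second list is therefore taken as that of IWR-1. Every call in it rests on this assignment. Each site was given the highest score of the DMSO MACS peaks that overlap it, a value that rises with the caller's confidence and starts at 50 in the deposited list. Shares are given with exact 95% Clopper-Pearson intervals over sites, which cover counting error only.

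The run itself is shown first, since it defines these sites. Each of the lines below gives the middle of the longest run and 50 bases to either side in mm10 (GRCm38), read 5′ to 3′ on the sense strand of the nearest transcript, with that run in capitals. The 5 sites of highest score for which a window could be shown held runs of 7 to 17 bases, some of A and some of T.
Gm25541, chr2:27539757-27539857, minus strand: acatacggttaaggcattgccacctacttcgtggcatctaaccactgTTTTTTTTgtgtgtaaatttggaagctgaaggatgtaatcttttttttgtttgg
Gm44066, chr6:128843329-128843429, minus strand: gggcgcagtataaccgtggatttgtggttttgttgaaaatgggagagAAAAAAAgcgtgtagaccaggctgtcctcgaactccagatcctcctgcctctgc
Gm26721, chr8:83898779-83898879, minus strand: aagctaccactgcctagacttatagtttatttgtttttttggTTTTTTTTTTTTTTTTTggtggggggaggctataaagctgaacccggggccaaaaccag
Rn7sk, chr9:78175196-78175296, minus strand: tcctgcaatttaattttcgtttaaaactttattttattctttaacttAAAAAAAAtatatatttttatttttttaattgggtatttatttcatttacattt
Atp5l, chr9:44920816-44920916, minus strand: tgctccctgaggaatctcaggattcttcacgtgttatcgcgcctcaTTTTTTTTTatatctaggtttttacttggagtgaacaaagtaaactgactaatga
The 3 sites shown with the longest runs held uninterrupted homopolymers that fill much of the window.
Gm2862, chr15:25682627-25682727, plus strand: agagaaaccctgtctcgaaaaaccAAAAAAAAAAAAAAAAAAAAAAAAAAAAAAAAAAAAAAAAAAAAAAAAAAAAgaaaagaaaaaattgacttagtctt
St6galnac3, chr3:153508801-153508901, minus strand: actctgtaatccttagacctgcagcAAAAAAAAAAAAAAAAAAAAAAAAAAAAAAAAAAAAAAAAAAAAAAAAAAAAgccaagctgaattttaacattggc
4930447C04Rik, chr12:72938844-72938944, minus strand: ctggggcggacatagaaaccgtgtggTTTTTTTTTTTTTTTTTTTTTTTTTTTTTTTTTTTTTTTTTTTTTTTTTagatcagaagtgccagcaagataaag
Sites of high score that were called in neither IWR-1 list held runs of intermediate length.
Iqcb1, chr16:36846965-36847065, plus strand: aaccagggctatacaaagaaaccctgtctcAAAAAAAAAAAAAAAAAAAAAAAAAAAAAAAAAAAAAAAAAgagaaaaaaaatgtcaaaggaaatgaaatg
Trp53rka, chr2:165493521-165493621, minus strand: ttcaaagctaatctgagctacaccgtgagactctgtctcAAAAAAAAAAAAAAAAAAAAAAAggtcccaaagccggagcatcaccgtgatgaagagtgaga
Pigv, chr4:133673205-133673305, minus strand: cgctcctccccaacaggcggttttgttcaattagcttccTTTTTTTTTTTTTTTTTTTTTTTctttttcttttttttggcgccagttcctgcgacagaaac
Gm47999, chr10:108143349-108143449, minus strand: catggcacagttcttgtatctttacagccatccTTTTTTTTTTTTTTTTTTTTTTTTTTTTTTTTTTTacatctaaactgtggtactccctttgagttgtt
None of these windows held an annotated UTR base. At Iqcb1 the run is followed by a further, interrupted stretch of adenines, and at Pigv by a further stretch of T.

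The runs at these sites were long. Their median length was 26 bases, with quartiles of 21 and 30.25 and a range from 7 to 52. Of the 924 sites, 728 held a run of 20 bases or more (78.8%, 95% interval 76.0 to 81.4). Windows of the same width placed 2 kb to either side of each site held a run of 7 or more in 610 of 1848 cases (33.0%), and the median length of those runs was 8 bases. Windows of 448 bp at all 132606 distinct transcript starts of the annotation held a run in 17.4% of cases, with a median length of 9 bases, and only 1.26% of them held a run of 20 or more. Of 32851 RefSeq promoters of 300 bases in GRCm38, 206 (0.627%) held a run of 20 or more. The selection set only the lower limit of 7, and sites near that limit were few, with 52 runs of 7 to 9 bases (5.63%), 144 of 10 to 19 (15.6%), 468 of 20 to 29 (50.6%) and 260 of 30 or more (28.1%). Smad1 sites with a run elsewhere had runs of like length, with a median of 26 bases inside genes and 27 outside them. More than 1 run of 7 or more was present in 385 promoter run sites (41.7%), and 118 (12.8%) held runs on both strands.

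**Figure D1:**
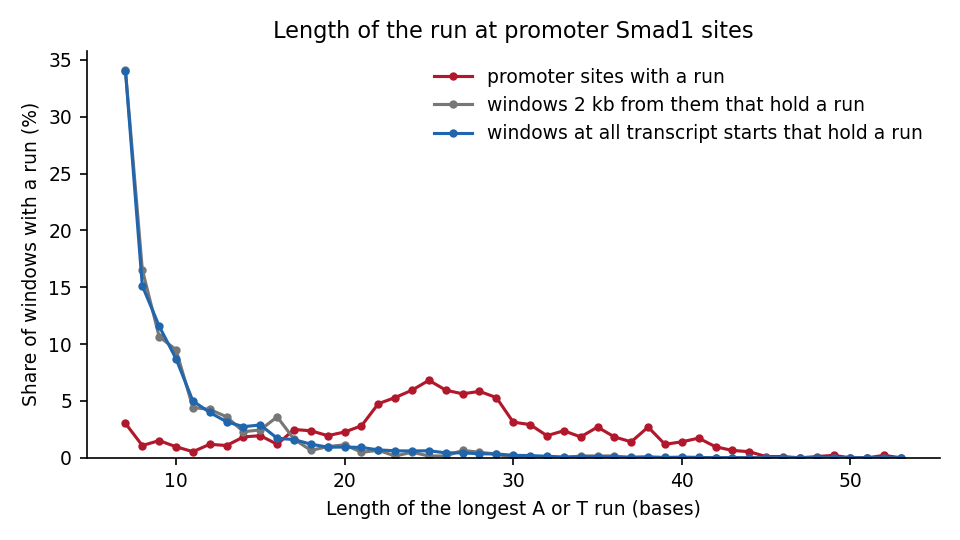
Length of the longest A or T run in bases (horizontal axis) against the share of windows that hold such a run in percent (vertical axis), for the 924 promoter run sites (red), windows of the same width 2 kb away (grey) and windows at all transcript starts (blue). The red line peaks between 20 and 30 bases around its median of 26, whereas both other lines start at their highest value at 7 bases and have medians of 8 and 9.

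The run was nearly always part of a masked repeat. In 916 of the 924 sites (99.1%, 98.3 to 99.6) all bases of the longest run were soft-masked in the NCBI sequence, and the unbroken masked stretch around it had a median length of 69 bases (quartiles 49 and 174). The kinds of repeat are not given by this masking. Over the whole site the masked share had a median of 32.1%, with quartiles of 19.4 and 48.8%. Without the bases of the run itself it was 28.0%. The windows 2 kb away had a median of 21.1%, and promoter sites without a run had a median of 7.34%. Run sites elsewhere were masked more, with medians of 39.9% inside genes and 43.7% outside them. All common sites had a median of 38.2%. A masked share of 50% or more was found in 220 promoter run sites (23.8%), while 336 (36.4%) were masked over less than 25% of their bases.

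A 9-base word from the body of the B1 repeat, CCCAGCACT, was searched on both strands and lay within 300 bp of the run in 214 of the 924 sites (23.2%, 20.5 to 26.0). In 173 of these 214 (80.8%, 74.9 to 85.9) the word stood on the strand on which the run is A and 5′ of it, the arrangement of a B1 copy and its tail. It stood on that strand but 3′ of the run in 24 sites (11.2%) and on the other strand in 26 (12.1%). The distance from the word to the middle of the run had a median of 122 bp in the 173 sites, and its quartiles of 115.5 and 128.5 lay close together. Inside the deposited interval the word was present in 155 sites (16.8%), against 7.74% of the windows 2 kb away, 4.76% of promoter sites without a run and 2.32% of the windows at all transcript starts. Among start windows that hold a run of 20 or more the share was 9.92%. Smad1 sites with a run elsewhere held the word more often, in 20.2% inside genes and 18.5% outside them. The B2 word AGATGGCTC was less frequent, within 300 bp of the run in 54 sites (5.84%) and on the A strand 5′ of the run in 24 of those. It was present in 3.68% of the intervals and in 6.06% of the windows 2 kb away. Neither word was found near the run in 672 sites (72.7%), which says only that these exact letters are not there.

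The stretch from the B1 word to the run is printed for the 3 highest-scoring sites in which the word precedes the run on the A strand, a set chosen after the values were seen. They are read on the strand where the run is A, with the word and the run in capitals.
Eef2k, chr7:120842537-120842684, minus strand: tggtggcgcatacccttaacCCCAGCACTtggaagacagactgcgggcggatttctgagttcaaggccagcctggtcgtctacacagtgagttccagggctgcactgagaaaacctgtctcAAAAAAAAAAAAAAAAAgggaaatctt
Gm23102, chr17:94869445-94869612, minus strand: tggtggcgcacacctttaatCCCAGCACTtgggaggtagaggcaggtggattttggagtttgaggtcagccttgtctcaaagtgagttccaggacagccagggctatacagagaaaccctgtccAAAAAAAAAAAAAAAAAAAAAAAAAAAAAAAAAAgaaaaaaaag
B230217C12Rik, chr11:97839750-97839915, plus strand: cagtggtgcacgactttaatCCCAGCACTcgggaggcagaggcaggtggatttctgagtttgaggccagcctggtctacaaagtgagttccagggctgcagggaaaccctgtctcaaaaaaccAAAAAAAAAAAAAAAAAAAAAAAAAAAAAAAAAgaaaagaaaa
The site at Eef2k, the gene of the kinase of elongation factor 2, scored 278.72 in DMSO. Those nearest Gm23102 and B230217C12Rik scored 134.91 and 125.91. Between 92 and 95 bases separate the word from the run in these sequences, and all 3 sites were called in both IWR-1 lists.

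Within the site the run lay near the centre and to one side of it. Seen on the strand where it is A, its middle was 5′ of the site centre in 611 of 924 sites (66.1%, 63.0 to 69.2), with a median offset of -31.75 bp. The centre of the called interval thus fell on the 3′ side of the adenines at most sites. In the windows 2 kb away the run lay 5′ of the centre in 49.2% (45.1 to 53.2), and in start windows with a run of 20 or more in 50.9%. The Smad1 sites with a run inside genes (67.7%) and outside them (67.9%) had shares close to that of the promoter run sites. The middle of the run was within 100 bp of the centre in 74.8% of the promoter run sites, against 45.9% of the windows 2 kb away that held a run. For runs of 7 to 9 bases the median distance to the centre was 123.5 bp, while it was 61.25 bp for 10 to 19, 55 bp for 20 to 29 and 58.75 bp for 30 bases or more.

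**Figure D2:**
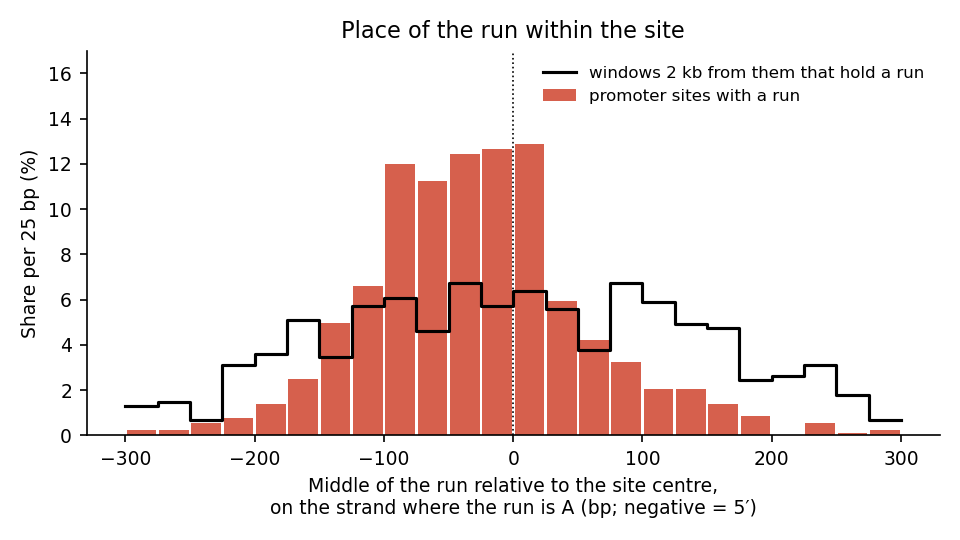
Middle of the run relative to the site centre in bp on the strand where the run is A (horizontal axis, negative values 5′) against the share of runs per 25 bp in percent (vertical axis), for the 924 promoter run sites (bars) and windows of the same width 2 kb away that hold a run (line). The bars gather between -125 and 25 bp around a median of -31.75 bp, and the line is spread over the width of the window.

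Promoter run sites were spread over the whole window around the start. The centre lay upstream of the nearest transcript start in 513 sites (55.5%, 52.2 to 58.8), downstream in 410 (44.4%) and on the start base in 1. The median distance was 462.5 bp, with quartiles of 202 and 733.5. Promoter sites without a run were closer, with a median of 144 bp, and 57.1% of them lay upstream. The called interval covered the start base itself in 263 promoter run sites (28.5%, 25.6 to 31.5) and in 188 of the 273 sites without a run (68.9%, 63.0 to 74.3). Counted in steps of 200 bp, the run sites were most frequent in the step just upstream of the start, with 129, and least frequent between 200 and 400 bp downstream, with 63. The other steps held between 76 and 107 sites. The genome itself has fewer runs at starts, since 17.4% of windows centred on a start held one, against 29.5% of those centred 1000 bp upstream and 28.1% of those 1000 bp downstream.

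The adenines lay on the sense strand of the nearest transcript in 404 sites (43.7%, 40.5 to 47.0), so that T was the more frequent base on the sense strand. This held on either side of the start, with A on the sense strand in 44.4% of the upstream sites and 42.9% of the downstream sites. The same was seen where no site was selected, because start windows with a run carried A on the sense strand in 45.1% of cases, and those with a run of 20 or more in 41.5%. The windows 2 kb away from the sites had 44.3%. The share at promoter run sites was therefore near that of the genome around starts. Measured against the plus strand of the chromosome, A was present in 52.9% of the sites.

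**Figure D3:**
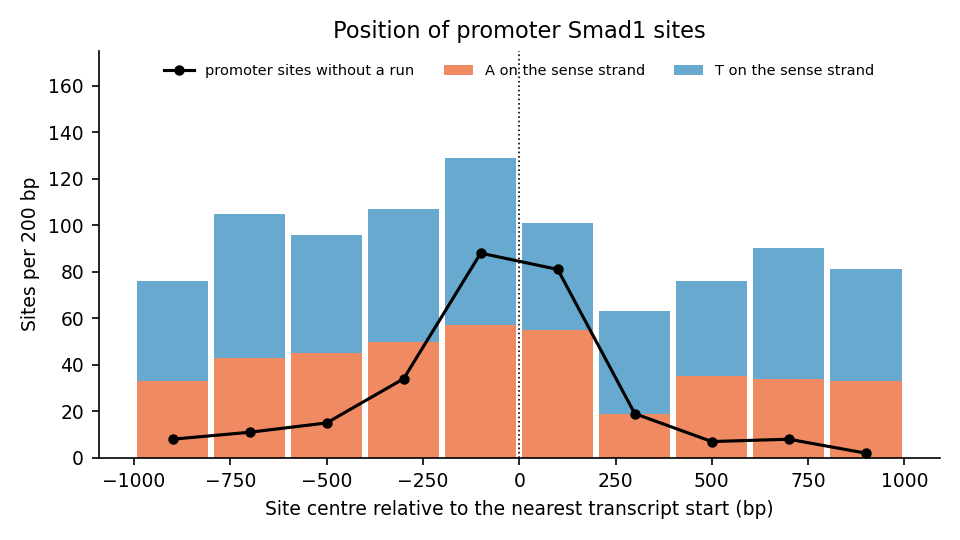
Site centre relative to the nearest transcript start in bp (horizontal axis, negative values upstream) against the number of sites per 200 bp (vertical axis), with promoter run sites as stacked bars by the strand of the adenines and promoter sites without a run as a black line. The bars stay between 63 and 129 sites across the window, while the line rises to 88 and 81 sites in the steps on either side of the start.

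The nearest start belonged to a protein-coding gene at 598 sites (64.7%, 61.5 to 67.8), against 78.4% of promoter sites without a run. Processed pseudogenes, which are retrotransposed copies of mRNAs, were nearest at 92 sites (9.96%, 8.10 to 12.1) and at 1 of the 273 sites without a run. They make up 17.9% of all 55450 annotated genes, and protein-coding genes 39.6%. These are shares of genes and not of starts, and the number of starts per gene was not taken into account. Long intergenic noncoding RNAs (lincRNAs) were nearest at 60 sites, loci of the class TEC, whose transcripts await experimental proof, at 38, antisense transcripts at 35, small nuclear RNAs at 22, microRNAs at 13, small nucleolar RNAs at 11 and the class misc_RNA, which holds 7SK and vault RNAs, at 9. In all, 989 distinct genes had a start within 1 kb of a promoter run site, of which 621 were protein-coding. Starts of more than 1 gene lay within 1 kb at 81 sites (8.77%), and starts on both strands at 64 (6.93%). Many of the starts were alternative ones. Of the 598 sites nearest a protein-coding start, 298 (49.8%, 45.8 to 53.9) lay within 1 kb of the outermost start of that gene, and the remainder lay only near a start inside it. The centre fell in an intron at 457 sites, outside genes at 286, in an untranslated region at 48 and in another exon at 133.

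Side and strand were not alike between gene types. Sites nearest a protein-coding start were upstream of it in 60.4% (56.3 to 64.3) and carried A on the sense strand in 38.6% (34.7 to 42.7). Sites nearest a processed pseudogene start were upstream in 30.4% (21.3 to 40.9) and carried A on the sense strand in 68.5% (58.0 to 77.8). Both intervals of the pseudogene sites lay apart from those of the protein-coding sites. Downstream position and sense adenines were combined in 48 of the 92 pseudogene sites (52.2%), the orientation of a copied mRNA tail. In only 12 of the 92 (13.0%, 6.93 to 21.7) did the run lie on the sense strand within 100 bp of the annotated 3′ end of the pseudogene, a measure added after the values were seen. Such a run of 7 or more is present at 20.0% of the 7837 processed pseudogenes that are at most 1 kb long. The runs at these 12 sites were long, 10 of them having 20 bases or more (83.3%, 51.6 to 97.9). That is close to the 78.8% of all promoter run sites. Of the 7837 pseudogenes, 1568 have such a run of 7 or more and 140 have one of 20 or more. The sites included copies of the ribosomal protein genes Rpl35a (Rpl35a-ps7, score 78.03, run of 15), Rpl13a (Rpl13a-ps1, 62.49, run of 23), Rpl31 (Rpl31-ps13, 53.25, run of 30) and Rps10 (Rps10-ps3, 55.31, run of 23). Of the 12, 2 were called in the IWR-1 QESEQ list (16.7%, 2.09 to 48.4) and 1 in the second MACS list (8.33%, 0.211 to 38.5). These wide intervals include the shares over all common sites, 37% and 25.8%. Reads from near-identical copies may be placed at any one of them, and how the authors treated such reads is not given in the sources used here.

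The highest scores belonged to a small group with short runs. The site of highest score, 1182.73, covered the start of the small nuclear RNA gene Gm25541 (chr2:27539628-27540135) and held a run of 8 T on the sense strand. The site at Vaultrc5, the gene of the vault RNA and a polymerase III transcript, scored 1084.86 with its centre 10 bp downstream of the start. Those at the lincRNA Gm44066 (chr6:128842976-128843596) and at Gm26721, a lincRNA beside the adhesion receptor gene Adgrl1 (chr8:83898285-83900278), scored 912.69 and 778.73. The site at Rn7sk, the gene of the 7SK RNA that holds the elongation factor P-TEFb inactive (chr9:78175123-78175824), scored 727.42. Protein-coding starts began at the sixth place, with Atp5l, a subunit of the mitochondrial ATP synthase, at 503.65. They continued with Agap2, a GTPase-activating protein, at 397.28, Arid1a, a subunit of the BAF chromatin remodelling complex, at 358.36, Caps2 at 336.67 and Tdrd3, a reader of methylated arginine, at 332.58. These 10 runs measured between 7 and 17 bases, against the median of 26 over all promoter run sites. No nuclear tRNA gene lay within 1 kb of any of the 924 sites.

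After IWR-1 all 10 of these sites were called in both lists, and in the second MACS list each scored below its DMSO value. The 10 were picked for their high DMSO scores, so that the lower second scores cannot be told apart from this choice. The second score was 898.41 at Gm25541, 496.67 at Vaultrc5, 647.93 at Gm44066, 340.49 at Gm26721 and 418.71 at Rn7sk. At the protein-coding starts it was 219.57 at Atp5l, 221.4 at Agap2, 129.2 at Arid1a, 129.12 at Caps2 and 100.21 at Tdrd3. MACS scores rise with the number of mapped reads as well as with enrichment. The study's methods give similar numbers of sequenced reads for its libraries, but the mapped reads behind each list are not given in the sources used here, and the part of depth in the lower scores was not tested. Over the 266 promoter run sites in the second MACS list the median score was 76.8 in DMSO and 64.1 in the second list. These 266 sites were likewise selected by their call in DMSO.

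Sites of high score differed in composition from the remainder. The 85 sites with a score of 100 or more had a median run of 23 bases with quartiles of 9 and 33, and 37 of them (43.5%, 32.8 to 54.7) held a run shorter than 20. Of the 839 sites with a lower score, 159 (19.0%, 16.4 to 21.8) did so. The interval covered the start in 41.2% of the former (30.6 to 52.4) and 27.2% of the latter (24.2 to 30.3). Their median ratio of observed to expected CpG was 0.486 against 0.269. The GC content was closer, with medians of 45.6 and 43.5%. Over all promoter run sites the median score was 66.6, with quartiles of 57.6 and 81.0, which is that of the common sites as a whole (66.6). Promoter sites without a run had a median of 103.

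The longest runs were not at the sites of highest score. The processed pseudogene Gm2862 and an internal start of St6galnac3, a sialyltransferase gene, both had runs of 52 A on the sense strand, 913 and 970 bp downstream of the start. Their DMSO scores were 102.29 and 104.36. The run at 4930447C04Rik, beside the homeobox gene Six6, measured 49 bases with a score of 65.06. That at the TEC locus Gm37720 also measured 49, with 75.43, and that at 4930502E18Rik on the X chromosome 48, with 101.7. None of these sites was in both IWR-1 lists. Both lists held 28.5% of promoter run sites with runs of 30 or more, and 18.4% of all common sites. At least 1 list held 61.5% of the former and 44.4% of the latter. The site at 4930447C04Rik was called by QESEQ alone, and each of the other 4 was called in the second MACS list alone, with second scores of 82.05 at Gm2862, 54.58 at St6galnac3, 69.81 at Gm37720 and 81.42 at 4930502E18Rik.

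In the IWR-1 QESEQ list 394 of the 924 promoter run sites had an overlapping peak (42.6%, 39.4 to 45.9), against 37% of all common sites. The second MACS list held 266 of them (28.8%, 25.9 to 31.8), against 25.8% of all common sites. Both lists held 192 (20.8%, 18.2 to 23.5), against 18.4% of all common sites, and neither list held 456 (49.4%, 46.1 to 52.6), against 55.6% of all. The lists disagreed at many sites, since 202 were called by QESEQ alone and 74 by the second MACS list alone. The QESEQ share at promoter run sites lay above that of run sites inside genes (36.2%, 34.7 to 37.6) and outside genes (33.3%, 31.9 to 34.8), and below that of promoter sites without a run (56.4%, 50.3 to 62.4). In the second MACS list these shares were 22.2%, 23.6% and 48.4%. These are shares of peaks that passed a caller's threshold in 1 library, and they do not measure how far Smad1 occupancy changed.

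The share called after IWR-1 was highest where the DMSO score was highest. When all sites outside tRNA genes were divided into 5 equal groups by score, the QESEQ share of promoter run sites was 33.2% in the lowest group, 37.0%, 33.3% and 44.2% in the next 3, and 62.8% (55.7 to 69.5) in the highest. In the second MACS list it was 14.7%, 21.2%, 23.5%, 30.0% and 52.3%. In the highest group, promoter run sites had a QESEQ share above that of run sites inside genes (47.0%, 43.2 to 50.8) and outside genes (42.3%, 39.0 to 45.7), and their interval overlapped that of promoter sites without a run (73.2%, 65.8 to 79.7). In the highest group of the second MACS list, the interval of promoter run sites (52.3%, 45.1 to 59.4) lay below that of promoter sites without a run (69.6%, 62.1 to 76.5). It lay above that of run sites inside genes (39.8%, 36.1 to 43.5) and overlapped that of run sites outside genes (46.1%, 42.8 to 49.6). In both lists together the share of promoter run sites was 39.7% (32.8 to 46.9), against 66.1% (58.4 to 73.2) without a run. The highest group has no upper limit, and scores within it were not matched. Its promoter run sites had a median score of 96.9, while the upper quartile of all promoter sites without a run was 201. The part of score in these differences was not tested. In the other 4 groups the QESEQ interval of promoter run sites overlapped that of run sites inside genes. Promoter sites without a run were few below the highest group, with 20 to 34 sites in each of the others, so that their shares there have wide intervals.

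**Figure D4:**
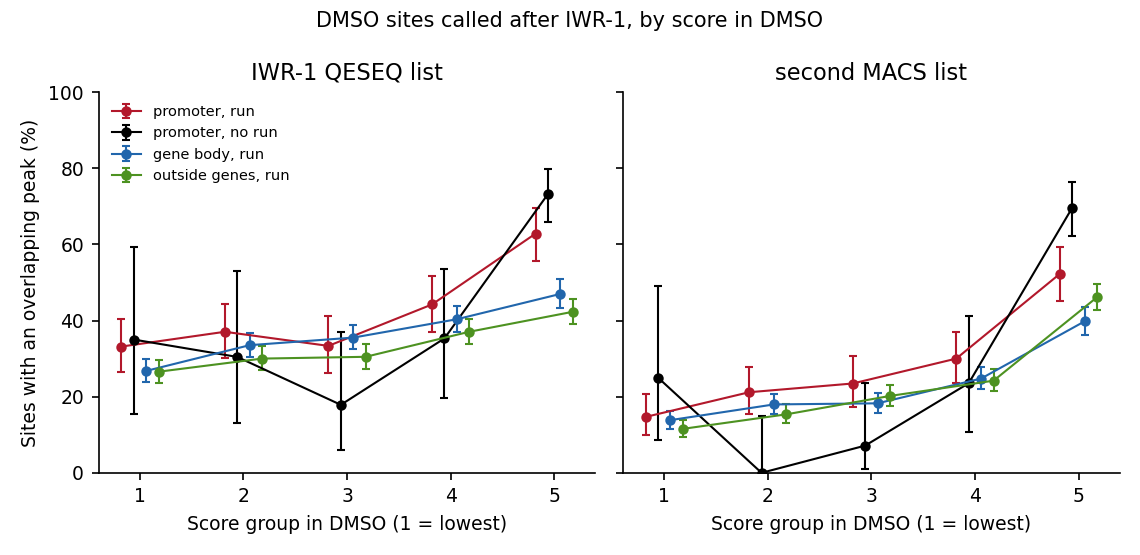
Group of sites by DMSO MACS score (horizontal axis, 5 equal groups of which 1 is the lowest) against the share of sites with an overlapping peak in percent (vertical axis) in the IWR-1 QESEQ list (left) and the second MACS list (right), for promoter run sites (red), promoter sites without a run (black), run sites inside genes (blue) and run sites outside genes (green), with exact 95% intervals over sites. The share of promoter run sites goes from 33.2 to 62.8% on the left and from 14.7 to 52.3% on the right.

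By length of the run, the shares were highest at both ends of the range, though the shortest class held only 52 sites. The QESEQ share was 50% (35.8 to 64.2) for runs of 7 to 9 bases, 34.7% (27.0 to 43.1) for 10 to 19, 39.5% (35.1 to 44.1) for 20 to 29 and 51.2% (44.9 to 57.4) for 30 or more. The second MACS shares were 40.4% (27.0 to 54.9), 24.3% (17.6 to 32.1), 23.3% (19.5 to 27.4) and 38.8% (32.9 to 45.1) in the same order. In both lists the interval of runs of 7 to 9 overlapped those of the middle classes. That of 30 or more lay above them. The median DMSO scores of these classes moved alongside, at 77.5, 63.1, 64.6 and 69.0, and the part of score in this pattern was not tested. Upstream sites were called by QESEQ in 45.8% (41.4 to 50.2) and downstream sites in 38.8% (34.0 to 43.7), with overlapping intervals. By strand of the run the intervals overlapped as well, with 40.8% (36.0 to 45.8) for A and 44.0% (39.7 to 48.4) for T on the sense strand. By masked share it was 40.2% for sites masked under 25%, 43.2% for 25 to 50% and 45.5% for 50% or more. Sites with the B1 word had a share of 45.8% (37.8 to 54.0) and those without it 42.0% (38.5 to 45.6). By gene type the share was 43.8% at protein-coding starts, 40.2% at processed pseudogenes and 43.3% at lincRNAs. Of the 22 small nuclear RNA sites, 13 were called by QESEQ (59.1%, 36.4 to 79.3), an interval that includes the 37% of all common sites. The second MACS list held 6 of the 22 (27.3%, 10.7 to 50.2), against 25.8% of all common sites.

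Among sites with no call in either IWR-1 list the highest DMSO score, 125.71, was that of Iqcb1, which codes for a ciliary protein also known as nephrocystin (chr16:36846917-36847228, run of 41). It was followed by Trp53rka, a kinase of the KEOPS complex (chr2:165493230-165493648, 116.94, run of 23), and the antisense gene Gm45892 (chr8:104218064-104218438, 112.02, run of 24). Next came Pigv, a mannosyltransferase of GPI anchor synthesis (chr4:133673072-133673684, 111.2, run of 23), and the processed pseudogene Gm47999 (chr10:108143044-108143647, 109.01, run of 35). All 5 scores were above the upper quartile of the promoter run sites and far below the 10 highest.

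Of the genes with known roles in the pathways under study, few had a promoter run site. The lists of genes had been written with earlier results of these data known, and the counts below are descriptions beside the 621 of 21924 protein-coding genes (2.83%) that had such a site. Of 104 Wnt pathway genes, 4 did (3.85%, 1.06 to 9.56). The site at Wls, which carries Wnt ligands to the cell surface, scored 85.56 (chr3:159840687-159841059, run of 21), and it was called in both IWR-1 lists, with a second score of 78.09. The site in an intron of Wif1, a secreted Wnt inhibitor, scored 74.36 (chr10:121034557-121034928) with a run of 41 and was called by QESEQ alone. Those at Axin1, the scaffold of the β-catenin destruction complex and the protein that IWR-1 stabilises (53.67, chr17:26187253-26187848), and at Cxxc4, a Dishevelled-binding Wnt inhibitor (51.59, chr3:134235887-134236246), lay near the lowest score and were in neither list.

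Of 91 BMP and TGF-β pathway genes, 3 had a site (3.30%, 0.685 to 9.33). They were Tgif1, a corepressor of Smads (57.38, chr17:70852090-70852634), Bmpr1b, a type I BMP receptor (54.27, chr3:141931687-141932123), and Zfyve16, an endosomal protein that binds Smads (53.35, chr13:92529781-92530206). The first and the last were called by QESEQ alone, and Bmpr1b was in neither list. Of 80 regulators of mesoderm, heart and blood, 2 had a site (2.50%, 0.304 to 8.74), and neither was called after IWR-1. Such a lack of calls was common, at 49.4% of promoter run sites and 55.6% of all common sites. The genes were Kit, the receptor of stem cell factor (77.91, chr5:75648302-75648681, run of 27), and Myb, a transcription factor of blood progenitors (59.9, chr10:21146714-21146978, run of 33). Of these 9 genes, Wif1, Cxxc4 and Zfyve16 had the site within 1 kb of their outermost start, and in the other 6 it lay near an internal one.

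Several lists of basic cell functions had shares above that of all protein-coding genes, without a test and with the number of annotated starts per gene not taken into account. Of 53 genes of DEAD and DEAH box RNA helicases, 7 had one (13.2%, 5.48 to 25.3), among them Ddx19a with 2 sites (104.24 and 56.41) and Dhx30 (96.15). Of 69 translation factor genes 6 had one (8.70%, 3.26 to 18.0), with Eef2k the highest, and of 108 genes of DNA replication and the cell cycle 9 (8.33%, 3.88 to 15.2), led by Pole2, a subunit of DNA polymerase epsilon (104.43), and Ccnd3, a D-type cyclin (93.72). Of 115 chromatin regulators 9 had one (7.83%, 3.64 to 14.3). Arid1a was followed there by Pbrm1, a subunit of the PBAF complex (94.83), and Hdac4, a class IIa histone deacetylase (90.63). The intervals of these 4 lists lay above 2.83%, as did that of the 98 respiratory chain and ATP synthase genes (7 with a site, 7.14%, 2.92 to 14.2), while that of the 79 splicing factor genes (6 with a site, 7.59%, 2.84 to 15.8) began at it.

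Olfactory receptor genes had a site in 9 of 1134 cases (0.794%, 0.364 to 1.50), an interval below 2.83%. None of the 67 protein-coding histone genes whose symbols begin with Hist had one, which allows a share of up to 4.48% by the limit of 3 counts (5.36% by the exact interval). This list leaves out replacement histones, of which H3f3b, the gene of histone H3.3, had a site (chr11:116028007-116028647, 85.41, run of 29) called in both IWR-1 lists. It was named after its values were seen. None of 59 genes of tRNA synthetases and tRNA modification had one, which allows up to 5.08% (6.06% by the exact interval). The lists of Zfp zinc finger genes (17 of 397), ubiquitin enzymes (8 of 241), solute carriers (7 of 385), cytosolic ribosomal proteins (5 of 102), vesicle sorting (5 of 113) and Tmem genes (4 of 242) had intervals that included 2.83%. The same was true of mitochondrial ribosomal proteins (3 of 78), DNA repair (3 of 77), the proteasome (3 of 50), small GTPases (2 of 124) and cilia and centrosome genes (2 of 90). Of 10 noncoding genes transcribed by RNA polymerase III, 9 had a promoter site of either kind and 3 a site with a run, which were Vaultrc5, Rn7sk and Bc1, the gene of a brain cytoplasmic RNA (70.18, run of 23).

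**Figure D5:**
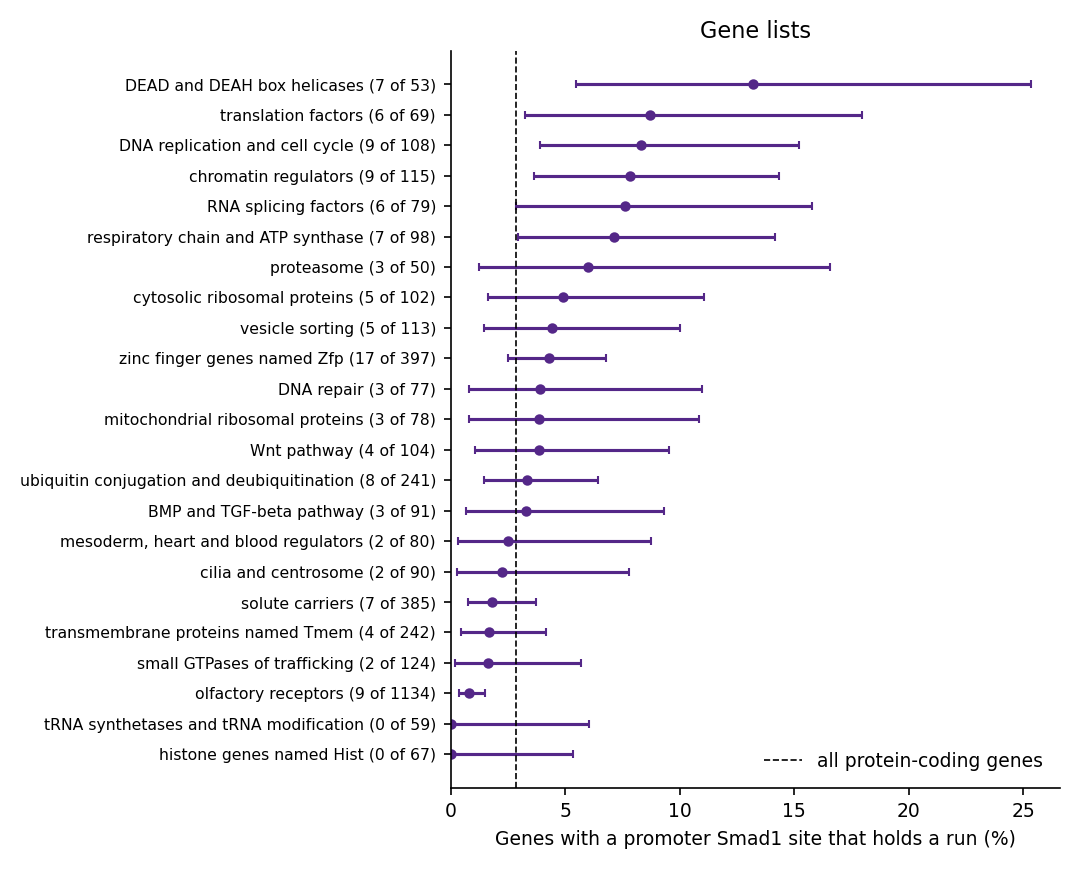
Share of genes with a promoter run site in percent (horizontal axis) for 23 gene lists (rows, with the number of genes with a site and the number in the annotation), with exact 95% intervals and a dashed line at the 2.83% of all protein-coding genes. The highest point is that of the helicases at 13.2% and the lowest of the lists with a site is that of the olfactory receptors at 0.794%.

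Most words of known transcription factors had shares in the promoter run sites close to or below those 2 kb away. Each was searched by its letters on both strands. The Smad GC-rich word GGAGCC was present in 22.4% of sites (19.8 to 25.2) and 20.6% of the windows 2 kb away, and the Smad-binding element CAGACA in 34.6% and 37.1%. GGCGCC, a second GC-rich Smad word, was present in 5.30% (3.95 to 6.95) and 2.38% (1.74 to 3.18). At least 1 of these 3 words was found in 51.3% of sites and 50.2% of the windows. Promoter sites without a run, which were richer in GC, held GGAGCC in 54.9% and GGCGCC in 31.5%, and windows at all starts in 39.1% and 15.6%. The TCF/LEF words CTTTGAT and CTTTGTT, through which β-catenin acts, were found in 7.58% and 10.6% of promoter run sites and in 8.33% and 13.8% of the windows 2 kb away. The GATA word AGATAA was found in 20.3% and 24.8%, and the AP-1 word TGACTCA in 7.25% and 7.90%. The GC content of promoter run sites had a median of 43.6%, against 43.8% in the windows 2 kb away, 59.5% at promoter sites without a run and 52.2% in windows at all starts.

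At the limits of the selection, sites on either side were as follows. The last sites inside 1 kb were near Ssh1 at 1000 bp, Oscp1 at 999 bp and Atp6v0a4 at 998 bp, with scores of 50.14, 57.14 and 58.04 and no call after IWR-1. The first outside were near Dnajc11 at 1001 bp, A830036E02Rik at 1002 bp and Gm14176 at 1003 bp, with scores of 70.9, 65.72 and 69.52. The first of these was called in both IWR-1 lists, the second by QESEQ alone and the last in neither. A longest run of exactly 7 was held by 28 sites, of which 10 were called by QESEQ and 9 in the second MACS list, with a median score of 84.4 and a median GC content of 50.3%. A longest run of 6 kept 39 promoter sites out, of which 23 and 24 were called, with a median score of 120 and a median GC content of 52.6%.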

How the data were processed

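Smad1 ChIP and input DNA were sequenced in 1 library per treatment. Per the labels and the study's methods, single-end reads were processed with CASAVA 1.8 and aligned to mm10 with Bowtie2 2.1.0, PCR duplicates were removed, and MACS 1.0.1 and QESEQ called peaks on each treatment. The authors deposited peak intervals, and their MACS lists carry a score per peak. The authors' intersection of the DMSO lists gave the common sites. How reads with several placements were treated is not given in the sources used here.

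QESEQ positions were counted from 0, like those of MACS. Runs, GC content, soft masking and words were read from the NCBI GRCm38 sequence, of the same build, with pysam 0.24.0. Starts and gene types came from GENCODE M21, and 403 nuclear tRNA genes from NCBI. A site was called after IWR-1 where a peak overlapped it by 1 bp. Where several runs tied in length, the one nearest the centre was used. Exact intervals came from scipy 1.17.1. The interval, run and start functions were tested on made-up data.

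The members, lists and words were chosen with earlier results of these data known. Sites were named by rule: the 10 highest scores, the 5 longest runs, the 5 highest scores without an IWR-1 call, and all at genes of the Wnt, BMP and TGF-β, and mesoderm lists. A few sites outside this rule head their gene list by score, or are said to be chosen later. Printed windows leave out 1 chromosome and windows with more than 30 UTR bases. Hjv and Mars1 of the lists had no match in the annotation.

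Alternatives were the length of the run, the distance, the starts used, a score minimum, the MACS interval, autosomes alone and the overlap that counts as a call.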

Additional observations from a re-analysis of the deposited data

How the results depend on the processing

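Of 60 recomputed values, 39 stayed within the 95% interval of the reported value, or within 1.5 times for the number of sites, and 21 did not. The number of sites was 490 within 500 bp of a start, 1618 within 2 kb and 85 with a score of 100 or more. The IWR-1 QESEQ share was 71.8% at scores of 100 or more, 35.9% with an overlap of 50% of site and of peak, 39.2% with peak centres within 200 bp, 20.8% for both lists and 50.6% for either. The second MACS share was 65.9% at such scores, 24.1% with the overlap of 50%, 20.8% for both lists and 50.6% for either. The upstream share was 59.2% within 500 bp, 61.0% with protein-coding starts only and 68.2% at scores of 100 or more. Adenines on the sense strand made up 39.0% with protein-coding starts only. The masked share had a median of 27.3% within 500 bp, 36.6% within 2 kb, 28.3% at scores of 100 or more and 28.0% outside the run. Sites nearest a protein-coding start made up 72.9% at scores of 100 or more. The cause of these shifts was not tested. A run of 10 or more, autosomes alone and the MACS interval changed none of the 7 results beyond these limits.

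No paired analysis was possible because each treatment has 1 library, and for the same reason no library was left out. The lists hold no read counts, so that neither depth per site nor a change in occupancy at a site called in both treatments was measured. A missing call is not a missing signal. Calls in the second MACS list rest on its assignment to IWR-1. The mappability of the runs was not tested.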
